A study of Mus musculus with 4 samples.

Results

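The comparison set both lines of the second injection round, B16-RII and B16-RIIL, against both earlier lines, B16 and B16-RI. It took in 4 of the 4 samples of the series, 2 on each side, with 1 array per line. B16 is a melanoma line of the C57BL6 mouse strain, here the B16F1 subline, and was the parental culture. B16-RI was grown from lymph node metastases that formed after parental cells had been injected into the skin of C57BL6 mice. B16-RII and B16-RIIL were both grown after intradermal injection of B16-RI, B16-RII from lymph node metastases and B16-RIIL from lung metastases. All 4 lines were grown in DMEM with fetal bovine serum and an antibiotic-antimycotic solution, and the labels name no further agent. The lines of a side are therefore different cultures and not replicates of 1 line, and B16-RII and B16-RIIL share B16-RI as their source. Labelled cRNA of each line was read on an Applied Biosystems array, on which each probe gives a single chemiluminescence signal. A probe was counted as different between the sides only where both arrays of 1 side lay above both arrays of the other, and such a probe is called separated below.

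Serial passage, in which cells of a metastasis are cultured and injected again, is a classical way to derive lines that differ in their spread from one tumour line. Melanoma cells stem from melanocytes, which build melanin in melanosomes under the control of Mitf, and B16 cells keep much of that programme in culture. Lines of this kind are compared to find transcripts that differ between early and late passages, such as adhesion molecules, secreted matrix proteins like osteopontin, proteases and metabolic enzymes.

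A probe was taken as detected when its signal was 3 or more times the noise (the S/N of the analyzer) and its flag was not above 5000, and between 13872 and 14855 of the 33012 probes were detected on an array. B16-RII and B16-RIIL had more detected probes, 14756 and 14855, than B16 and B16-RI, with 14375 and 13872. The median raw signal was also higher on the round 2 arrays, at 619 and 554 against 435 and 451. In what follows, log2 signal means log2 of the deposited normalized signal, centred on the median of the 11604 probes detected on all 4 arrays. The labelled cell type was checked by its markers. Of 7 melanocyte lineage markers 5 were on the array under a matched symbol (Tyr, Tyrp1, Dct, Pmel and Mitf), and all 5 were detected on every array. Their summed log2 level lay between 8.37 and 8.64. No separated difference of 2-fold was found among them. Markers of cells that a metastasis could carry into culture were mostly undetected. Of the endothelial markers 0, 0, 1 and 1 of 7 were detected on B16, B16-RI, B16-RII and B16-RIIL, of the macrophage markers 2, 1, 1 and 1 of 6, of the fibroblast markers 2, 1, 2 and 3 of 6, of the lymphocyte markers 1, 1, 1 and 2 of 6, of the keratinocyte markers 1, 0, 2 and 1 of 3, and of the lung epithelium markers 1, 0, 0 and 1 of 5. The summed log2 levels of these lists spanned -1.55 to -1.31 for endothelium, -1.27 to -0.75 for macrophages, -0.78 to 0.28 for fibroblasts, 1.88 to 2.07 for lymphocytes, -1.30 to -0.55 for keratinocytes and -2.39 to -1.41 for lung epithelium. The macrophage, keratinocyte and lung epithelium sums were separated between the sides, all lower in the round 2 lines, and their part in the differences below was not tested. These sums include the signals of undetected probes. Of the 19430 probes too dim to be tested below, 13.1% were separated and 2-fold lower and 1.16% higher, so no difference is read from the sums.

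The sides differed in both directions. Probes of Apobec2, Bcas1, Mcoln3 and Fbp2 were bright in both round 2 lines and at or under the detection limit in the earlier ones, and the widest gap between the nearest arrays of the sides was 3.33 log2 units among probes higher in the round 2 lines (Apobec2). Among lower probes it was 3.76, for a probe with no matched gene that is described below. Among 13582 probes detected on both arrays of at least 1 side, 1975 (14.5%) were separated with the round 2 lines higher and 2646 (19.5%) with the round 2 lines lower. Which direction held more probes rested on the scaling, with 3025 higher and 2809 lower after quantile normalization, 2911 and 2751 with 75th percentile scaling, and 5437 and 751 when each array was centred on all its probes. Of the probes tested 34% were separated in either direction. With a limit of 2-fold between the side means added, 334 probes (2.46%) were higher and 322 (2.37%) lower. The 334 higher probes included 201 genes that RefSeq matched and the 322 lower probes 119. On this scale 50.9% of the probes past 2-fold were higher, but that share rested on the centring. It was 78.7% when each array was centred on all its probes, which moved the median difference of the tested probes from -0.02 to 0.27, and 66.4% after quantile normalization. Because RNA of whole cultures was measured, fewer cells of a type and less RNA per cell cannot be told apart in any of these differences.

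The test across all probes called very little. limma called 0 probes higher (0%) and 1 lower (0.00736%) at a Benjamini-Hochberg adjusted p below 0.05, while 1024 probes (7.54%) had an unadjusted p below 0.05. The only probe that fell in this fit bears the combined symbol A830008O07\s1700010C24Rik, which RefSeq did not match to 1 gene. Its log2 signal was -1.50 in B16 and -1.38 in B16-RI, and it was -5.90 in B16-RII and -5.25 in B16-RIIL. Both earlier arrays lay far above both round 2 arrays, and the difference of the side means was -4.14 (adjusted p = 0.0269). The probe was detected on neither round 2 array, so it was tested only through its bright side and its p supports no difference. With B16-RII raised to the lowest signal detected on its array the difference was -4.08. No probe was called lower when the probe sets of the array were centred apart, after quantile normalization or 75th percentile scaling of the raw signals, or without the detection filter, at 0 each. Other settings called more, 93 probes higher and 38 lower when each array was centred on all its probes, and 32 and 14 when an S/N of at least 5 was required for detection. When limma let the spread depend on the signal level, 32 probes were called higher (0.236%) and 13 lower (0.0957%), and these calls are given below as calls with the intensity trend. An exact permutation test of a single probe cannot go below p = 0.333 with 2 arrays against 2. For the genes below, "higher" and "lower" therefore describe the arrays, and limma values stand beside many of them. Of the 41 probes named below 18 were not detected on all 4 arrays. These entered the comparison only through their brighter side, among them all those named for a gain or loss of detection, so their p values describe the arrays and support no difference.

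**Figure D1:**
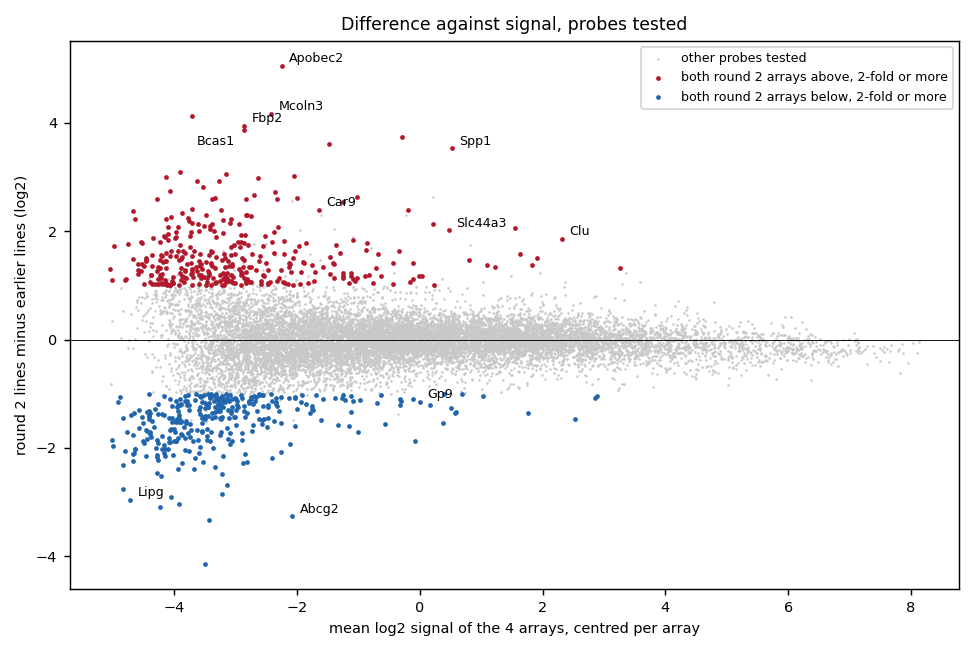
Difference between the means of the round 2 and the earlier lines (y axis, log2) against the mean log2 signal of the 4 arrays (x axis), 1 point for each of 13582 probes tested. Red points are the 334 probes with both round 2 arrays above both earlier arrays and at least 2-fold apart, blue points the 322 in the opposite direction, and the named outlying points include Apobec2 at 5.06 and Abcg2 at -3.26.

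The 656 separated probes past 2-fold (4.83% of those tested) were mostly dim on 1 side. Only 58 of the 334 higher probes and 79 of the 322 lower ones were detected on all 4 arrays. Of the higher probes 176 were detected on neither earlier array, and of the lower probes 132 on neither round 2 array. Such a probe entered the comparison only through its bright side, so its separation is partly set by the detection filter. The weaker of both bright arrays had a median S/N of 5.91 for the higher probes and 4.33 for the lower ones, against the detection limit of 3. When just the probes detected on every array were considered, 1479 (12.7%) were separated higher and 2247 (19.4%) lower, and the counts at 2-fold were 58 (0.5%) and 79 (0.681%). At the limit of 2-fold, Me1 lay just inside with a difference of 1.00 and Arsg just outside with 0.99, and in the other direction Pfkp lay inside with -1.01 and Depdc1a outside with -0.9996.

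Lines of the same side also differed from each other. B16 and B16-RI were at least 2-fold apart in 1195 of the tested probes and B16-RII and B16-RIIL in 737, while the side means were at least 2-fold apart in 750. A mean of 2 arrays varies less than a single array, so the last count cannot be ranked against the others. Among the 334 higher probes, B16-RI lay within 0.5 log2 units of B16 in 107, and it lay at least 1 unit above B16, on the way to the round 2 lines, in 85 and at least 1 unit below B16 in 45. Among the 322 lower probes B16-RI was within 0.5 units of B16 in 187, at least 1 unit below it in 26 and at least 1 unit above it in 16. B16-RII and B16-RIIL were within 0.5 units of each other in 176 of the higher probes. B16-RIIL exceeded B16-RII by at least 1 unit in 34 of the higher probes, and the reverse was found in 16. In the lower probes B16-RIIL lay at least 1 unit under B16-RII in 60, and B16-RII at least 1 unit under B16-RIIL in 32. A distance of 2-fold between the nearest arrays of the 2 sides was kept by 94 of the higher and 110 of the lower probes, and 10 and 11 of these were detected on all 4 arrays.

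**Figure D2:**
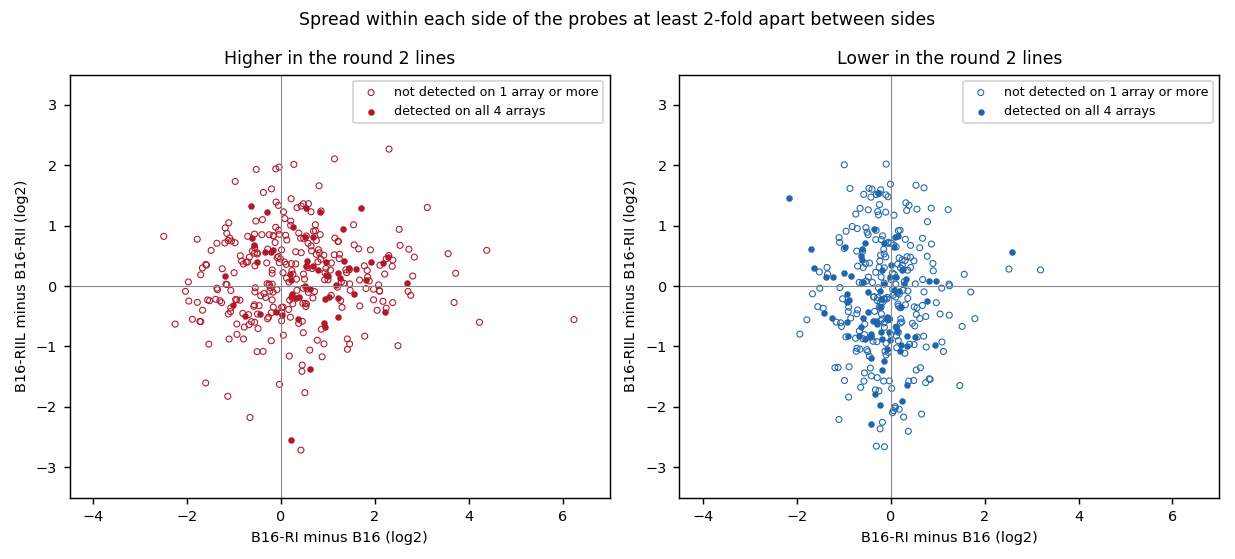
Difference between the lines of each side for the probes at least 2-fold apart between sides, with B16-RI minus B16 on the x axis and B16-RIIL minus B16-RII on the y axis (both log2). The left panel holds 334 probes higher in the round 2 lines and the right panel 322 lower ones, filled points were detected on all 4 arrays (58 and 79), and the left cloud reaches farther to the right, where B16-RI was above B16.

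Probes detected on both round 2 arrays and on neither earlier array numbered 438 of 33012 (1.33%), and those detected on both earlier arrays and on neither round 2 array 161 (0.488%). Both round 2 arrays had a higher median raw signal, and its part in these counts was not tested. The gained probes reached far higher ratios. The lower S/N of the bright side was at least 10 in 8 gained probes and in 0 lost ones, with a maximum of 58.1 for the gained and 7.25 for the lost probes. Of these 8 probes 6 carried a matched gene symbol, and they are Apobec2, Bcas1, Mcoln3, Fbp2, Nrros and Pth1r.

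Apobec2, a member of the APOBEC cytidine deaminase family known from muscle, showed the widest difference among the named genes. Its log2 signal was -6.04 in B16 and -3.52 in B16-RI, and it was -0.19 in B16-RII and 0.75 in B16-RIIL. The probe did not pass the detection limit on either earlier array, but with an S/N of 2.98 B16-RI lay just under it. The S/N was 63.6 and 58.1 on the round 2 arrays. The signal there was 28.7-fold higher, with each undetected array raised to the lowest signal that counted as detected on it. Where the signal of the probe lay above that, it entered unchanged. Folds of probes undetected on a whole side are given in this way below, and they are estimates and not lower bounds. The difference was 5.06 ± 0.74 (limma SE, 2 arrays a side, adjusted p = 0.0727, and 9e-05 with the intensity trend). It was 3.80 without the B16 array and 6.32 without the B16-RI array. A second Apobec2 probe was also separated. It had log2 signals of -3.80, -6.29, -3.11 and -2.29 in B16, B16-RI, B16-RII and B16-RIIL, a difference of 2.34, and was detected on B16 with an S/N of 3.03, so the transcript was not undetected in all earlier lines. The difference of this probe was 1.09 without B16-RI and 3.59 without B16. It was undetected on B16-RI (S/N 0.05), so the value of 3.59 is set against an undetected signal alone. With B16-RI raised to the lowest signal detected on its array, the difference of 2.34 was 1.87.

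Bcas1, a gene first found amplified in breast cancer and known from myelinating cells, was at log2 signals of -5.71 and -3.90 in B16 and B16-RI and of -0.92 and -0.96 in B16-RII and B16-RIIL. The round 2 lines were nearly equal, and the signal was 14.1-fold higher there (adjusted p = 0.0727, and 0.00063 with the intensity trend). B16-RI lay just under the detection limit with an S/N of 2.79, and the difference of 3.86 was 2.96 without B16 and 4.77 without B16-RI. Fbp2, the muscle form of fructose-bisphosphatase, which runs against glycolysis, was at -5.24 and -4.43 in the earlier lines and at -1.72 and -0.06 in the round 2 lines. The lung line was the brighter one, and the signal was 15.5-fold higher in the round 2 lines (adjusted p = 0.0727, and 0.00059 with the trend). Its difference of 3.95 was 3.12 without B16-RIIL and 4.78 without B16-RII. Mcoln3, a cation channel of endosomes and lysosomes whose mutation changes coat colour in mice, followed the same order, with -5.07, -3.93, -1.39 and 0.71. No earlier array reached an S/N above 1.00 for it, and the round 2 signal was 17.9-fold higher as measured (adjusted p = 0.0809, and 0.00059 with the trend). The difference of 4.16 was 3.11 without B16-RIIL and 5.22 without B16-RII.

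Nrros, a protein of the endoplasmic reticulum that binds latent TGF-beta, and Pth1r, the receptor for parathyroid hormone, were dimmer. Nrros had log2 signals of -4.71, -3.05, -2.26 and -1.65 and was 3.79-fold higher. Its difference of 1.92 was 1.10 without the B16 array and 2.75 without B16-RI, which had an S/N of 2.82. Pth1r had -3.93, -4.31, -2.31 and -0.76 and was 6.01-fold higher, with a difference of 2.59 that was 1.81 without B16-RIIL and 3.36 without B16-RII. Of this pair just Pth1r was called with the intensity trend (adjusted p = 0.0245, against 0.119 without it), while Nrros was not (0.187 and 0.308).

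**Figure D3:**
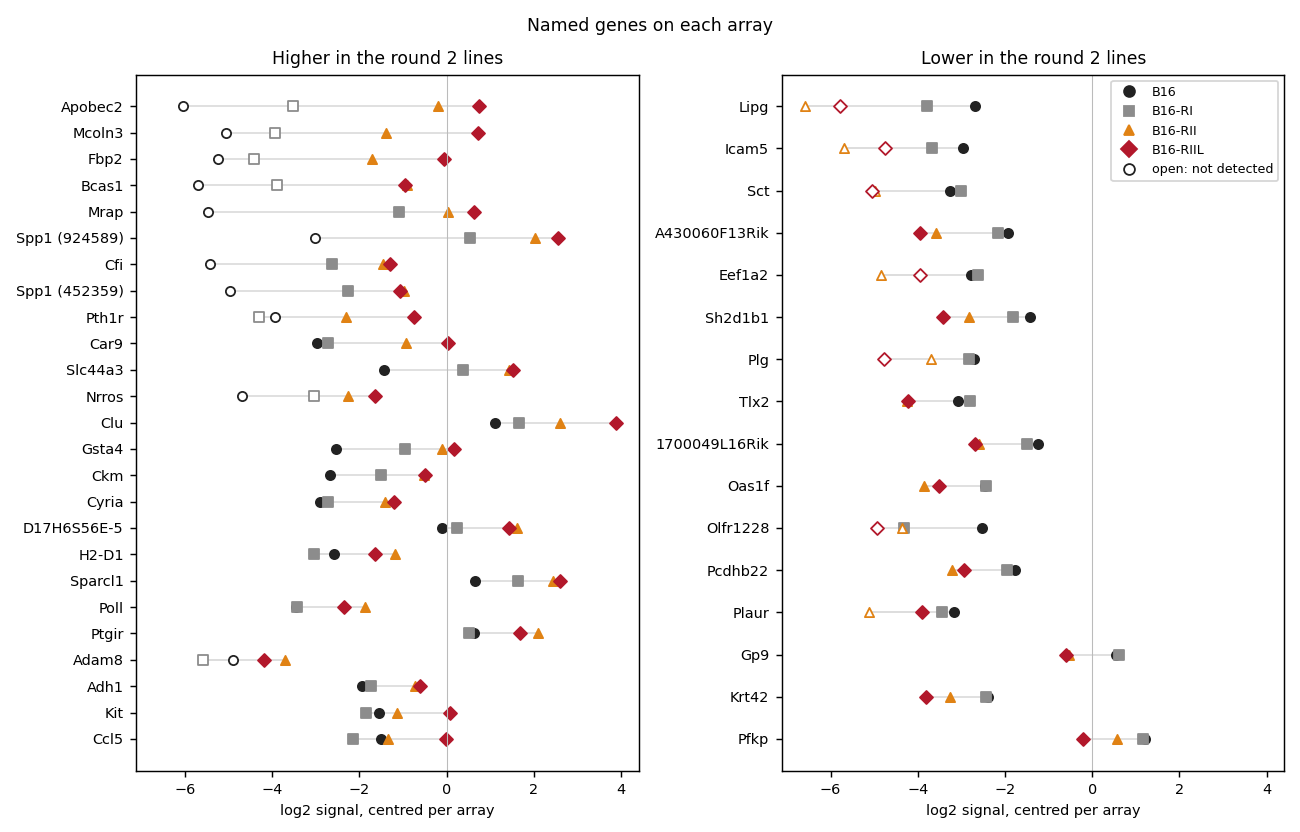
Log2 signal centred per array (x axis) of the 41 named probes of 40 genes (y axis, ordered by the size of the difference), with 1 symbol per line and open symbols where the probe was not detected. In the left panel both round 2 symbols lie to the right of both earlier symbols, from Apobec2 with a difference of 5.06 to Ccl5 with 1.14, and in the right panel to the left of them, from Lipg with -2.95 to Pfkp with -1.01.

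Among genes detected on all 4 arrays, Car9 kept the widest gap between the nearest arrays of the sides, 1.78 log2 units. Car9 is a carbonic anhydrase of the cell surface and a well-known target of the hypoxia-inducible factors. Its log2 signal was -2.97 in B16 and -2.72 in B16-RI, nearly equal, and it was -0.94 in B16-RII and 0.04 in B16-RIIL. The difference was 2.39 ± 0.37 (SE), a 5.25-fold higher signal (adjusted p = 0.0727, 0.00393 with the intensity trend and 0.00546 among probes detected on all 4 arrays). It was the only probe called higher in that last set, where 3 were called lower. The limma adjusted p of Car9 was 0.335 with the probe sets centred apart, 0.215 after quantile normalization and 0.198 with 75th percentile scaling. Without a detection filter it was 0.631. It was 0.0113 when each array was centred on all its probes and 0.019 at an S/N of at least 5.

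The next genes in that order were Cyria, D17H6S56E-5, Poll, Slc44a3, Ptgir, Adh1 and Ckm. Cyria, whose product binds the GTPase Rac1, was at -2.91 and -2.73 in the earlier and -1.41 and -1.21 in the round 2 lines, and the adjusted p was 0.108. A second Cyria probe was separated too, with a difference of 0.79, but one more probe overlapped between the sides, with -1.63, -4.75, -1.89 and -2.97. Slc44a3, a transporter-like protein of the choline transporter family, showed a step already in B16-RI, with log2 signals of -1.44, 0.37, 1.44 and 1.53. Its difference was 2.02 ± 0.54 (SE), and 1.12 without the B16 array or 2.92 without B16-RI, with an adjusted p of 0.287, and 0.0176 with the intensity trend.

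Ptgir, the prostacyclin receptor, was even on both earlier arrays, at 0.62 and 0.50, and stood at 2.11 and 1.68 in B16-RII and B16-RIIL. The 2.52-fold higher signal had an adjusted p of 0.179, and 0.0227 with the trend. Of D17H6S56E-5 the values were -0.10, 0.23, 1.62 and 1.43, with adjusted p values of 0.127 and 0.0149. Neither gene overlapped between the sides under any centring tried. Poll, a repair DNA polymerase, Adh1, an alcohol dehydrogenase, and Ckm, the muscle creatine kinase, were 2.53-fold, 2.26-fold and 3.02-fold higher, and all 3 had an adjusted p above 0.05 with and without the trend (lowest value 0.0616, of Ckm). The difference of Ckm, 1.59, was 1.01 without B16.

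The promoters of 4 genes are shown because these genes carry the largest differences of their kind: Car9 among genes detected everywhere, Apobec2 among all named genes, Mcoln3 among melanosome genes, and Spp1 as the gene that the study followed. The sequences are those of RefSeq for GRCm38.p6, each with 250 bases before and 50 after the start of the gene, 5' to 3' on the strand of the gene. They lie at chr4:43506776-43507075 on the plus strand (Car9), chr17:48432679-48432978 on the minus strand (Apobec2), chr3:146121541-146121840 on the plus strand (Mcoln3) and chr5:104434861-104435160 on the plus strand (Spp1, the upstream one of 2 starts). Capitals mark the motifs searched on both strands, the core ACGTG of the hypoxia response element and the M-box core CATGTG bound by Mitf, which were chosen after the values had been seen.
Car9: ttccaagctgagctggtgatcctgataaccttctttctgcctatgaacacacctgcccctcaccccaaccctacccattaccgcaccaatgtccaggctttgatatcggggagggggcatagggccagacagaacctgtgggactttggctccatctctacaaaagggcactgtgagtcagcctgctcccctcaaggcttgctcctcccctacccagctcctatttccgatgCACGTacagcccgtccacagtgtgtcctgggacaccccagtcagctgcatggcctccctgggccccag
Apobec2: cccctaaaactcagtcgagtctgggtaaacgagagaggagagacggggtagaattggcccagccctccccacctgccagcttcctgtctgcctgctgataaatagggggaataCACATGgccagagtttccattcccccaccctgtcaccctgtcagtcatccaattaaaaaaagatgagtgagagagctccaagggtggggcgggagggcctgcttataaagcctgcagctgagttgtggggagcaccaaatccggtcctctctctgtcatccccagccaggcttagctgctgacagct
Mcoln3: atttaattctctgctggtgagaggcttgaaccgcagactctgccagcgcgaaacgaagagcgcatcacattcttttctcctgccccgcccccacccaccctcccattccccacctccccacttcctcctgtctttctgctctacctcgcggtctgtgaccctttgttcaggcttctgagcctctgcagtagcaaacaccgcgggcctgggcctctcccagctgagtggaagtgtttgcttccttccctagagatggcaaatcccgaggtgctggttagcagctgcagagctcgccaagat
Spp1: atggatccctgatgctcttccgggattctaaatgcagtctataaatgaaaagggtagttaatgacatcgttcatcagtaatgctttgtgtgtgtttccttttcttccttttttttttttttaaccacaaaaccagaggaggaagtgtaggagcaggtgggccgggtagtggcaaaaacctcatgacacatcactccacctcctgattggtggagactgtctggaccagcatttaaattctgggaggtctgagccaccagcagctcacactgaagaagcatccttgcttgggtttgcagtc
Car9 held the reverse complement of ACGTG at positions -18 to -14 from the start, in the letters CACGT, and Apobec2 that of CATGTG at positions -137 to -132, in the letters CACATG. Mcoln3 and Spp1 held no match in these windows. Both motifs are common: ACGTG was found in 19.6% of the 32851 promoters of the table and CATGTG in 14.2%. With 1 promoter per gene, ACGTG stood in 35 of 159 genes at least 2-fold higher in the round 2 lines (22.0%), in 14 of 89 at least 2-fold lower (15.7%) and in 1729 of 6426 of all genes tested (26.9%). The shares for CATGTG were 21 genes (13.2%), 6 genes (6.74%) and 530 genes (8.25%).

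Spp1 encodes osteopontin, a secreted phosphoprotein that binds integrins. Its brighter probe had a log2 signal of -3.02 in B16, where it was undetected, of 0.54 in B16-RI, of 2.03 in B16-RII and of 2.56 in B16-RIIL. The wide step lay inside the earlier side, between B16 and B16-RI, and the round 2 lines were nearly alike. The sides were separated by 1.49 log2 units, and the difference of 3.54 ± 0.97 (SE) had an adjusted p of 0.304, and of 0.00693 with the intensity trend. Without the B16 array the difference was 1.76, and without the B16-RI array 5.31. The other Spp1 probe had -4.98, -2.27, -0.99 and -1.08, the same order of sides, with a difference of 2.60 (adjusted p = 0.334, and 0.0467 with the trend) that was 1.24 without B16 and 3.95 without B16-RI.

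Genes lower in the round 2 lines were closer to the detection limit. Of the genes detected on all 4 arrays, A430060F13Rik had the widest gap, 1.44 log2 units, with -1.92 and -2.16 in B16 and B16-RI and -3.59 and -3.94 in B16-RII and B16-RIIL. Its adjusted p was 0.0814, and it was 0.0277 among probes detected on all 4 arrays and 0.175 with the intensity trend. Gp9, a subunit of the platelet receptor for von Willebrand factor, was the brightest of these genes relative to noise, with an S/N of at least 26 on each array. It stood at 0.54 and 0.61 in the earlier and at -0.54 and -0.61 in the round 2 lines, 2.22-fold lower (adjusted p = 0.209, and 0.0847 with the trend).

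Sh2d1b1, the adapter EAT-2 of natural killer cells, was at -1.44 and -1.82 against -2.84 and -3.42. The other named genes of this kind were 1700049L16Rik, the homeobox gene Tlx2, Oas1f of the oligoadenylate synthetase family, the protocadherin Pcdhb22 and the keratin Krt42. They were 2.18-fold to 2.45-fold lower, with adjusted p values from 0.172 to 0.290, and without B16-RIIL the difference of Krt42, -1.13, was -0.85. A second probe of 1700049L16Rik was lower and separated too, while a second Sh2d1b1 probe was detected on no array.

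The genes detected on both earlier arrays and on neither round 2 array were led by Lipg, the endothelial lipase. Its log2 signal was -2.69 in B16, -3.79 in B16-RI, -6.59 in B16-RII and -5.79 in B16-RIIL. The earlier signal was 5.84-fold higher (adjusted p = 0.0727, and 0.202 with the trend). Sct, the hormone secretin, was at -3.26 and -3.00 against -4.99 and -5.05, 3.71-fold apart (adjusted p = 0.0727, and 0.380 with the trend). The adhesion molecule Icam5, the elongation factor Eef1a2, plasminogen (Plg) and the odorant receptor Olfr1228 were 3.74-fold, 3.27-fold, 2.76-fold and 2.35-fold apart. Olfr1228 was separated by just 0.06 log2 units and overlapped between the sides under every other centring and after quantile normalization. Its difference of -1.23 was -0.34 without B16 and -2.12 without B16-RI. Without B16-RIIL the difference of Plg, -1.46, was -0.92.

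The gene lists described cell functions that could differ between the lines. Over 19 lists, 232 distinct genes were tested, 38 were separated higher and 40 lower, and 33.6% were separated in either direction, near the 34% of all probes. At 2-fold 13 members were higher and 2 lower, 6.47% against 4.83% of all probes. limma called 0 members. An unadjusted p below 0.05 was found for 24 (10.3%, against 7.54% of all probes), and 8 were called with the intensity trend (3.45%, against 0.331%). The lists were chosen with earlier results known, so these shares are descriptions.

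Pigment genes showed no common direction. Of the 16 tested members of the melanin and melanosome list 1 was separated higher and 2 lower, and the median difference was -0.02, the same as over all probes tested. Of all probes tested 14.5% were separated higher and 19.5% lower. Dct, an enzyme of melanin synthesis, had log2 signals of 7.07, 7.13, 6.96 and 7.20, and Pmel, the fibril protein of the melanosome, 5.97, 6.0, 5.87 and 6.13. Both overlapped between the sides. Tyrp1, with 7.44, 7.60, 7.21 and 7.34, was separated lower by only 0.25. Mcoln3 was thus the only member of this list past 2-fold, and it has the role in ion transport given above and none in pigment synthesis itself.

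Among 7 tested lineage factors and receptors, 2 were separated higher, both past 2-fold, and the median difference was 0.25. Over all probes tested 14.5% were separated higher, and 2.46% were also past 2-fold. The 2 members are Mrap and Kit, and Mrap was tested only through the round 2 arrays. Mitf, the master factor of the lineage, overlapped with -1.25, -1.73, -1.65 and -1.62. Mrap, an accessory protein of melanocortin receptors, was undetected in B16 at -5.48 and stood at -1.10 in B16-RI, 0.04 in B16-RII and 0.63 in B16-RIIL. Its difference of 3.62 ± 1.17 (SE) became 1.43 without the B16 array and 5.81 without B16-RI (adjusted p = 0.434, and 0.0306 with the trend). Kit, the receptor of stem cell factor, was at -1.55 and -1.85 against -1.14 and 0.08, so that just B16-RIIL stood well above the earlier lines (adjusted p = 0.535), and its difference of 1.17 was 0.56 without B16-RIIL and 1.78 without B16-RII.

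Of 15 tested matrix proteases and inhibitors 7 were separated lower and 2 higher, with a median difference of -0.14, while over all probes tested 19.5% were separated lower and 14.5% higher and the median was -0.02. Several of these separations were narrow, with gaps between the nearest arrays of 0.004 for Adam10 and 0.05 for Ctsl, and limma called 0 of the 15 with or without the intensity trend. Mmp14, a membrane-bound metalloprotease, had log2 signals of 5.15, 4.97, 4.74 and 4.52. Mmp2, which Mmp14 activates, had -2.19, -2.45, -2.94 and -2.80. Plaur, the receptor of urokinase, was 2.31-fold lower and was undetected on B16-RII, at -3.16, -3.44, -5.13 and -3.89, and its difference of -1.21 was -0.59 without B16-RII and -1.83 without B16-RIIL. In the opposite direction, Adam8, a membrane protease, was detected only on the round 2 arrays, at -3.72 and -4.19, and was 2.25-fold higher there. Its difference of 1.28 was 0.94 without B16-RI. The adjusted p values of these 4 genes lay between 0.290 and 0.907.

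Of 13 matricellular and matrix genes 3 were separated higher and 2 lower, with a median of -0.11. Over all probes tested 14.5% were separated higher and 19.5% lower, and the counts of this paragraph only describe the lists. Beside Spp1, Sparcl1, a relative of the matrix protein Sparc, was past 2-fold with 0.65, 1.64, 2.44 and 2.61 (adjusted p = 0.291, and 0.0355 with the trend). Its difference of 1.38 was 0.89, under 2-fold, without B16. For integrins 1 of 5 members was separated in each direction, with Itga6 lower by 0.53 and Itgb1 higher by 0.16. Junction and shape genes were separated higher in 2 and lower in 2 of 10, among them Fscn1, an actin-bundling protein, with 3.29, 3.73, 4.18 and 4.13. Of the lymphatic and vascular growth factors Vegfc, the main ligand of the lymphatic receptor VEGFR-3, was separated higher by 0.51 with -0.41, -0.37, 0.08 and 0.15, Vegfb higher by 0.30 and Pdgfa lower by 0.35, and the other 3 tested overlapped.

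In immune pathways H2-D1, a heavy chain of MHC class I, was higher in the round 2 lines, with -2.59 and -3.04 against -1.19 and -1.65 (adjusted p = 0.199). It was the only member past 2-fold of 7 tested for antigen presentation, whose median was -0.03. H2 genes are near-identical to each other, so its probe may read related transcripts. Of 11 interferon response genes 2 were separated higher, Ifit2 and Mx2, and 3 lower, Ifi35, Mx1 and Usp18. Over all probes tested these shares were 14.5% and 19.5%. The chemokine Ccl5 was at -1.50 and -2.15 against -1.34 and -0.02, with B16-RII close to B16, and its difference of 1.14 was 0.48 without B16-RIIL and 1.80 without B16-RII. Just 3 complement genes were tested, and 2 of them were separated and past 2-fold, as were 4.83% of all probes. Clu, the chaperone clusterin, had 1.11, 1.65, 2.59 and 3.89, a difference of 1.86 ± 0.45 (SE), and it was bright on each array with an S/N above 46 (adjusted p = 0.228, and 0.00736 with the trend). That difference was 1.21 without B16-RIIL and 2.50 without B16-RII. Cfi, the protease that inactivates C3b, was undetected in B16 and had -5.43, -2.63, -1.45 and -1.29 (adjusted p = 0.340), and its difference of 2.66 became 1.26 without the B16 array and 4.06 without B16-RI.

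The metabolic lists held members separated in both directions. Over all probes tested 14.5% were separated higher and 19.5% lower, and 4.83% were also past 2-fold. The counts of this paragraph describe the lists and are not read as a result about them. Of 18 genes of glycolysis and the hypoxia response 3 were separated higher (Car9, Fbp2 and the hexokinase Hk1) and 3 lower (Pfkp, Tpi1 and Eno1), with a median of 0.01. Pfkp, a phosphofructokinase, was the bright member of the lower ones, at 1.21 and 1.17 against 0.57 and -0.20 (adjusted p = 0.458). Its difference of -1.01 was -0.62, under 2-fold, without B16-RIIL. In the tricarboxylic acid cycle 3 of 16 were separated higher and 4 lower, and the widest difference was that of Mdh2 with -0.54. In cholesterol synthesis 2 of 19 members were separated in each direction, with a median of 0.03. Among 24 antioxidant and glutathione genes, Gsta4, which detoxifies lipid aldehydes, was the only one separated and past 2-fold, with -2.55, -0.95, -0.11 and 0.17 (adjusted p = 0.314, and 0.0467 with the trend). Its difference of 1.78 was 0.98 without B16 and 2.58 without B16-RI.

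For growth and signalling, 2 of 20 cell cycle genes were separated higher and 3 lower, with cyclin D1 (Ccnd1) at 3.08 and 3.11 against 2.69 and 1.95. Of 13 MAPK feedback genes 2 were higher and 3 lower, and of 13 Wnt pathway genes 3 and 3. Over all probes tested 14.5% were separated higher and 19.5% lower, so nothing is read from these counts. The TGF-beta and BMP pathway had 0 of 15 tested members separated in either direction, and 0 of them had an unadjusted p below 0.05, where 34% and 7.54% of all probes did. Its widest difference, 1.09 for the ligand Bmp4, came with overlapping arrays at -3.11, -5.17, -2.52 and -3.59.

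**Figure D4:**
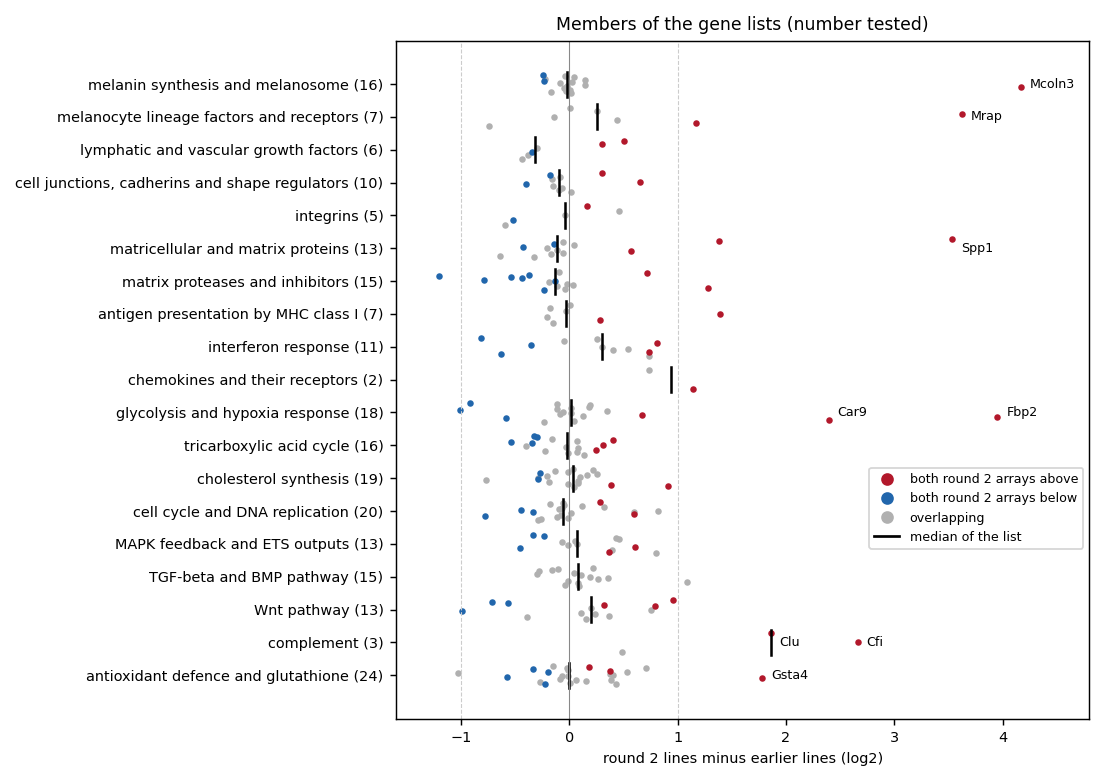
Difference between the means of the round 2 and the earlier lines (x axis, log2) for the tested members of 19 gene lists (y axis, number tested in brackets), 1 point per gene. Red points had both round 2 arrays above, blue points both below, grey points overlapped, the black bar is the median of the list, and the medians lie near 0 in most lists while single genes such as Mcoln3 (4.16) and Fbp2 (3.95) stand far out.

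Where an array holds several probes for a gene, they could be set against each other. Of 36 genes with several tested probes, 1 of them separated and past 2-fold, all other probes had the same direction in 24, and in 9 they were separated the same way. Over all probes tested 14.5% were separated higher and 19.5% lower, and whether these counts exceed that was not tested. A further probe was itself past 2-fold in 4 genes, Apobec2, Spp1, Saa3 and Zfp458. Saa3, an acute-phase serum amyloid, had differences of 2.09 and 1.78 on its probes, and Zfp458, a zinc finger gene, 2.38 and 1.03.

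By chromosome, the difference of the sides was uneven. Genes of chromosome 8 detected on all 4 arrays were higher in the round 2 lines by a median of 0.20 log2 units against all chromosomes, over 430 probes, and those of chromosomes 2 and 6 lower by 0.10 each, over 617 and 400 probes. On these 3 chromosomes the shift lay mostly in B16-RIIL. On chromosome 8 the median was 0.35 for B16-RIIL and 0.04 for B16-RII, on chromosome 2 -0.19 and -0.01, and on chromosome 6 -0.19 and -0.04. On chromosome 18 both lines were lower to a similar extent, by medians of -0.10 and -0.08 over 181 probes, of which 25.4% were separated lower and 4.97% higher. Of all probes detected on every array 19.4% were separated lower, and on chromosome 6 the share was 25%. On chromosome 19 both were higher, each by a median of 0.06 over 269 probes. In chromosome 8 28.6% of the probes were separated higher, against 12.7% of all probes detected on every array. The shares over all probes also take in those with no matched gene, which the shares by chromosome leave out. The difference between chromosomes was not tested, since probes are not replicates of a line.

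**Figure D5:**
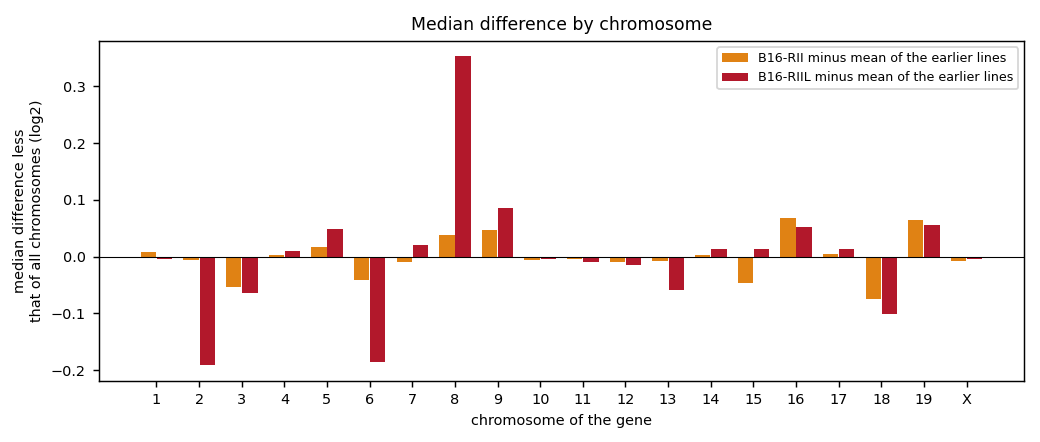
Median difference from the mean of the earlier lines by chromosome (x axis), less the median over all chromosomes (y axis, log2), for probes detected on all 4 arrays. Bars stand for B16-RII and B16-RIIL, and the tall bars at chromosome 8 (0.35), 2 (-0.19) and 6 (-0.19) are those of B16-RIIL.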

How the data were processed

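RNA of 4 mouse melanoma lines had been hybridized to Applied Biosystems arrays. The methods describe duplicate cultures, and the design text of the series adds that RNA of different passages was pooled, while the labels give 1 sample per line. The 16 columns of the arrays named in the labels were used. Another 30 columns, 20 with values of second arrays and 10 with ratios of these, match no sample label and were not used, nor were 14 columns of log2 values and ratios derived by the authors. The authors deposited the raw intensity of the analyzer, a normalized intensity, and 2 scores, the S/N and the flag. Dividing raw by normalized intensity gave 1 of 2 constants per array, for probe sets of 16524 and 16488 probes, so the deposited values were scaled and not quantile normalized, which the methods name. In B16-RI and B16-RIIL, 1 line of each side, the 2 probe sets differed in their median.

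Log2 of the normalized intensity was centred on the median of the probes detected on all 4 arrays, without a pseudocount. Probes detected on both arrays of at least 1 side were tested, 13582 in all. Groups were taken from the sample titles. limma 3.58.1 in R 4.3.3 (lmFit, eBayes) compared both sides, with Benjamini-Hochberg adjustment over all tested probes and a threshold of 0.05. Its spread is that between different lines, which may be technical or a true difference between lines. For its fold, an undetected dim probe entered with the higher of its own and the lowest detected signal of the array. This is not the detection limit of that probe, so the fold is no lower bound. The number of arrays limits the precision.

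Named were the 8 matched genes in each direction with the widest gap among probes detected on all 4 arrays, the 6 in each direction with the highest lower S/N among probes that gained or lost detection, Spp1, and list members past 2-fold, 41 probes of 40 genes. Lists used the brightest probe of a gene. The members of the comparison and the lists were chosen with earlier results of these data known. RefSeq (GRCm38.p6) matched 16186 of 17302 probes with a symbol. The file names no genome build. The procedure was tested on simulated data. Alternatives were other centrings, quantile normalization, other detection filters, other size limits, an intensity trend and leaving out each line. The values of 2 genes are not reported here. Python 3.11.15, numpy 2.4.6, pandas 2.3.3 and matplotlib 3.10.9 were used.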

Additional observations from a re-analysis of the deposited data

How the results depend on the processing

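Under the alternatives the 41 named probes had 471 values in all, none of which reversed. Many could not have reversed. A filter or the trend leaves the difference as it is, and a separated probe keeps its sign when 1 line is left out. Only the other scalings could have reversed a difference, and the 41 probes kept their direction under each. The sides stayed separated in 40 of them, all but Olfr1228, under each other centring and after quantile normalization. At an S/N of at least 5, 38 were tested and separated, without Tlx2, Adam8 and Plaur, and 23 were tested when detection on all 4 arrays was required. Counts moved more. Centring on all probes gave 5437 probes separated higher and 751 lower, 646 and 175 at 2-fold, 93 and 38 by limma and 5 list members called. Quantile normalization gave 3025 separated higher. Without a detection filter 3008 were separated higher and 9521 lower, and 560 and 2865 at 2-fold. With an S/N of at least 5, 206 and 118 were 2-fold apart, limma called 32 higher and 14 lower with 3 list members, and 82 probes lost detection. With detection on all 4 arrays, 58 and 79 were 2-fold apart, and limma called 1 higher (Car9) and 3 lower with 1 list member. The intensity trend gave 32 higher, 13 lower and 8 list members. The 1 probe called lower by limma became 0 with the probe sets centred apart, after quantile normalization, with 75th percentile scaling and without a filter. Limits of 1.5-fold, of 4-fold and of 2-fold between the nearest arrays gave 698, 60 and 94 probes higher and 863, 47 and 110 lower. The cause of these moves was not tested, except that a filter or limit changes the probes counted by construction.

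Leaving out 1 line at a time leaves a lone array on its side, which is assumed to vary like the other side, and makes separation easier by construction. The counts ranged from 3978 to 5384 separated higher, from 4619 to 6482 lower, from 569 to 1189 at 2-fold higher and from 396 to 1777 at 2-fold lower. limma called 0 to 256 higher, 0 to 853 lower and 0 to 13 list members. Without B16 it called 213 higher and 741 lower, without B16-RI 256 and 853, and without B16-RII or B16-RIIL 0 of either. The count at an S/N of 5 for gained and lost detection and the trend for list members were chosen after seeing the data. No paired analysis was possible because the replicate numbers were given in accession order and nothing in the labels pairs the lines. Dim signals limit the lower genes, whose weaker bright array had a median S/N of 4.33.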

Other observations

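Several genes of the round 2 lines that were best known from skeletal muscle led to a look at other muscle genes, in a list of 38 chosen after the values had been seen and including those genes, so it supports nothing by itself. Of 31 genes on the array 11 had a tested probe, and 8 tested probes were separated and at least 2-fold higher while 0 were lower, against 2.46% and 2.37% of all probes tested. All of these 8 but the Ckm probe, 7 in number, entered the test only through their round 2 arrays, so nothing is read from these counts. Beside Apobec2, Ckm and Fbp2 these were probes of Des, Fabp3, Fitm1 and Casq1. Des, the intermediate filament desmin, had log2 signals of -3.72, -3.25, -1.55 and -1.59 in B16, B16-RI, B16-RII and B16-RIIL. Fabp3, a fatty acid binding protein of heart and muscle, had -6.10, -5.17, -2.74 and -2.52 on its tested probe, but its other probe was detected on no array. Fitm1, which takes part in storing fat in droplets, had -5.39, -2.86, -1.48 and -0.80. Tnnc2, a calcium-binding troponin, was detected on both earlier arrays and on neither round 2 array, but its signals overlapped between the sides, with -2.54, -2.96, -2.95 and -3.74. Among probes that were not tested, 6 were separated and at least 2-fold lower, those of Ryr1 (-2.23), Acta1 (-1.68), Atp2a1 (-1.23), Myog (-1.16), Fabp3 (-1.13) and Pgam2 (-1.02), and 1 was higher, that of Myl1 (1.26), and each of these was detected on at most 1 array. Of all 19430 probes not tested 13.1% were separated and 2-fold lower and 1.16% higher, so this split of the muscle probes is not read as a difference of these genes. Of the 31 genes 11 were detected on no array, among them Myod1, Myf5, Acta1, Tnnt3 and Mb. Mylpf, a myosin light chain, was detected on all 4 arrays and was separated with a difference of 0.69, while Ckmt2, a mitochondrial creatine kinase also detected on all 4, overlapped with a difference of 0.25.

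Among further genes called with the intensity trend, a pair chosen here after their values were seen was Abcg2, an efflux transporter, lower with 0.10, -1.0, -2.61 and -4.81 (limma with the trend, adjusted p = 0.00452), and the glial filament gene Gfap, higher with -3.72, -4.23, -1.13 and -2.22 (0.0374). Without the trend their adjusted p values were 0.166 and 0.10. Abcg2 was undetected on B16-RIIL and Gfap on both earlier arrays, so each was tested only through its brighter side and these p values support no difference.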
